A study of Mus musculus with 8 samples.

Results

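The genes described here were detected in the extensor digitorum longus (EDL) muscle of all 4 wild-type (WT) mice and in none of the 4 PCKO mice. They numbered 181 of the 20145 named genes on the array, or 0.898%, and are called WT-only genes. A gene was taken where 1 of its probes carried the scanner software's mark for a spot well above background on all 4 WT arrays and on none of the 4 PCKO arrays. That choice used the PCKO against WT contrast itself, so the values of these genes are a description and carry no test. The counterpart, detected on all 4 PCKO arrays and no WT array, held 185 genes (0.918%), and no gene was in both groups.

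PCKO mice carry an inducible knockout of p300 and CBP in skeletal muscle. The treatment protocol names both genes, while the genotype label of the PCKO samples names CBP alone, and no label names the Cre driver. All mice were C57BL/6 males. PCKO mice began 5 days of oral tamoxifen at 13 to 15 weeks of age, and muscle was taken after a 4 hour fast on the day after the last dose. The labels do not say in separate words how WT mice were dosed. Total RNA of each muscle was hybridised to a single-colour Agilent array. The labels number the samples of each group and mention no pooling, and each of the 8 samples is taken as 1 mouse.

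p300 (Ep300) and CBP (Crebbp) are paralogous coactivators that acetylate histones and other proteins and are recruited to enhancers and promoters by many transcription factors. In muscle they are known partners of MyoD, the basic helix-loop-helix factor that binds the E-box CANNTG. At the neuromuscular junction, subunit genes of the acetylcholine receptor are read from synaptic nuclei, with E-boxes and the N-box TTCCGG among the known elements of their promoters.

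The targeted genes were read first. Ep300 had a processed signal of 62.0, 95.2, 75.3 and 58.9 on the 4 PCKO arrays, against 106, 158, 155 and 141 on the 4 WT arrays. Crebbp had 2190, 2528, 2460 and 1897 on the PCKO arrays, against 2693, 3025, 2546 and 2230 on the WT arrays. With each array's scale removed, the probe differences were -1.45 and -0.71 on the log2 scale (PCKO minus WT). Both genes stayed well above background on all 8 arrays. With the arrays centred on spike-in RNA instead, a scaling that moved the median of all tested genes by 0.74 on the log2 scale, the differences were -0.71 for Ep300 and 0.03 for Crebbp. The place of either probe relative to the deleted exons is not known here, so they check the labels only loosely.

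**Figure D1:**
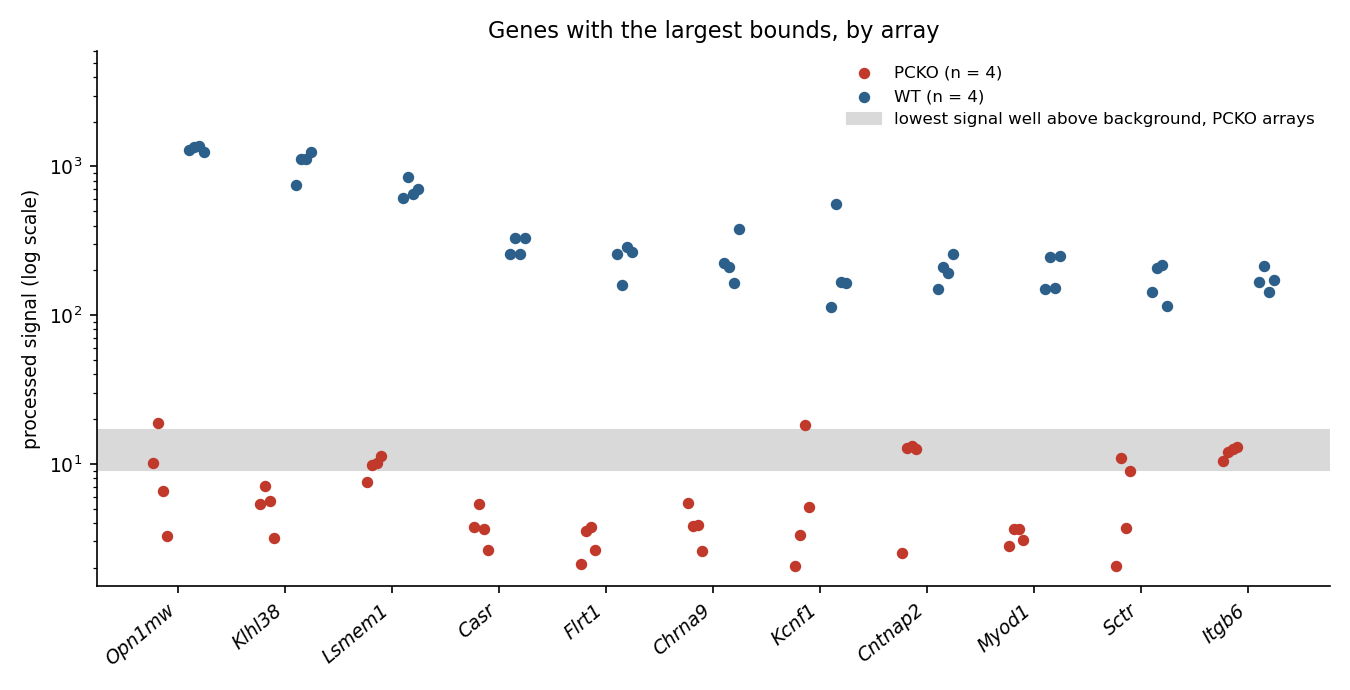
Processed signal (arbitrary units, log axis) of 11 of the 12 WT-only genes with the largest bounds on their fall, clone names left out, with 1 point per array and PCKO mice left of WT mice. The grey band spans the lowest signals well above background on the PCKO arrays (9.12 to 16.9), and for Opn1mw the PCKO points lie between 3.29 and 18.9 and the WT points between 1244 and 1371.

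Promoters of 4 genes are shown for genes whose values follow, because the factors that recruit p300 and CBP in muscle read short motifs there. Each is the 250 bases before the annotated start in RefSeq (GRCm38.p6), 5′ to 3′ on the gene's strand, and capitals mark every CANNTG and every TTCCGG, the second also as its reverse complement CCGGAA. Chrna9 lies at chr5:65966874-65967123 (plus strand), Chrne at chr11:70619195-70619444 (minus), Lsmem1 at chr12:40199316-40199565 (minus) and Opn1mw at chrX:74127216-74127465 (plus).
Chrna9: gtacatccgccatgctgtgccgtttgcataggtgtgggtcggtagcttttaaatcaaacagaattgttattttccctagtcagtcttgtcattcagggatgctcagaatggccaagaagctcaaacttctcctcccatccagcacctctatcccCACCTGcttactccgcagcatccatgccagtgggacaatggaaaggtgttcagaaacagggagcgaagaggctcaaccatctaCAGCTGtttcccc
Chrne: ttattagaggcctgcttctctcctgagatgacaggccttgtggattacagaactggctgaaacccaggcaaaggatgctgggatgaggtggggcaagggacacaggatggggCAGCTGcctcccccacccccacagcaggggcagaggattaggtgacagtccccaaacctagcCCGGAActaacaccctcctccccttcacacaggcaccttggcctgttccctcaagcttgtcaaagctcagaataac
Lsmem1: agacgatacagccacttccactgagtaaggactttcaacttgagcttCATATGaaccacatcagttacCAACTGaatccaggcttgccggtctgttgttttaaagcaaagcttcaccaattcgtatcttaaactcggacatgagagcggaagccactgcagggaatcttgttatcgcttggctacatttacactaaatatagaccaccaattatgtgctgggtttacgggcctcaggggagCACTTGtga
Opn1mw: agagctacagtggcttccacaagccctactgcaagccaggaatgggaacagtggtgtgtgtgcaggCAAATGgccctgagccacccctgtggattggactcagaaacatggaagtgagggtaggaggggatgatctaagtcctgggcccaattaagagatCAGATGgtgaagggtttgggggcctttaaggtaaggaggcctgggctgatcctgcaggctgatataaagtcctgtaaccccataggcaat

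The Chrne window held 1 E-box, of the form CAGCTG, and 1 N-box. Chrna9 had 2 E-boxes, 1 of them CAGCTG, Lsmem1 had 3 and Opn1mw had 2, and none of these 3 windows held TTCCGG. Promoter windows were found for 132 of the 181 WT-only genes. CANNTG on either strand was present in 96 of them (72.7%), against 66.0% of 27018 windows of the same length. The CAGCTG form, which every CANNTG search also counts, stood in 15.2% of the WT-only windows and 12.8% of all windows. TTCCGG stood in 7.58% of the WT-only windows and 12.2% of all windows. These shares describe letters in a window and not binding.

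Most WT-only genes were dim even in WT muscle. Their mean WT signal had a median of 26.8 and reached from 12.2 to 1315, while the median over the 15410 named probes detected on all WT arrays was 360.0. In PCKO muscle the mean signal of the WT-only probes ran from 2.72 to 13.7, with a median of 6.20. The median spot on the negative controls was at most 3.63 on any array. The processed signal is not scaled between arrays, and the 75th percentile of the PCKO arrays (159 to 204) was above that of the WT arrays (110 to 146), so the PCKO arrays were the brighter ones.

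Because the PCKO side is not well above background, the fall of a WT-only gene has only a lower bound. The bound sets the mean WT value against the mean PCKO floor, where an array's floor is its lowest signal well above background, or the probe's own value if that was higher. Both means are taken over log2 signals after subtracting each array's 75th percentile, so a bound can exceed the ratio of the unscaled signals printed here, and it holds for its probe and this scaling. Those lowest signals were 9.12 to 16.9 on the PCKO arrays and 9.47 to 10.9 on the WT arrays. All 181 bounds were above 1. The median was at least 2.88-fold, the middle 50% of genes lay between 1.94-fold and 6.56-fold, and the highest was 131-fold. At least 2-fold was reached by 132 genes, at least 4-fold by 67, at least 10-fold by 30 and at least 20-fold by 11. The median bound was 2.04-fold with no scaling, 1.72-fold with spike-in centring, 1.40-fold after another background correction (normexp) and 7.91-fold with the probe's own PCKO value as the floor.

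**Figure D2:**
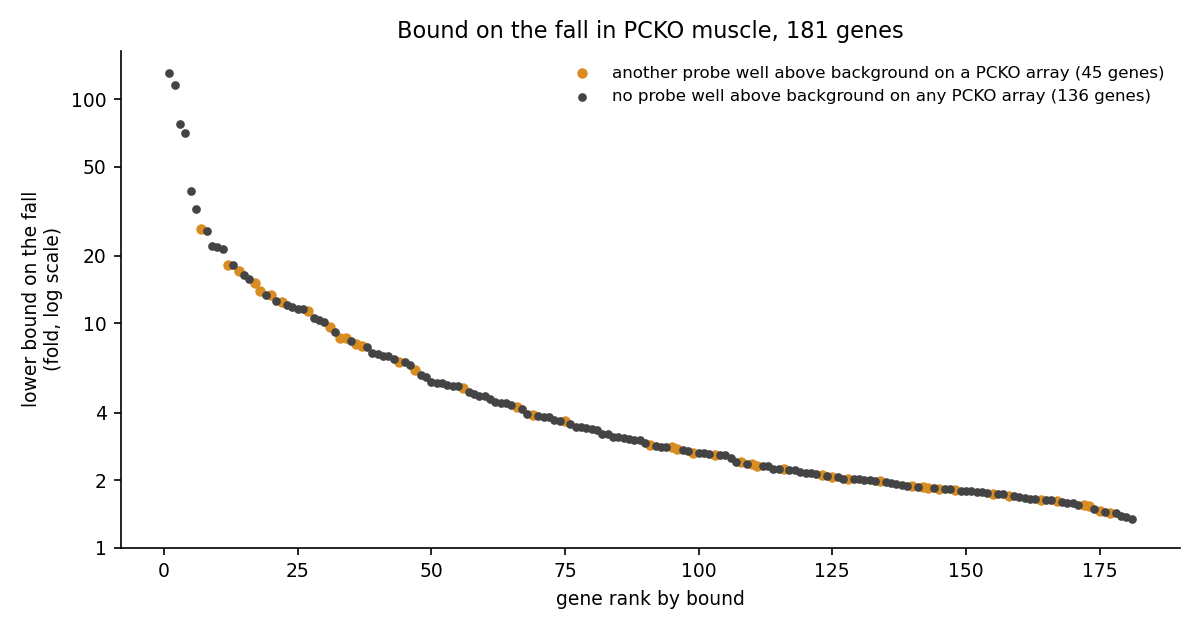
Lower bound on the fall in PCKO muscle (fold, log axis) of each of the 181 WT-only genes, ranked by that bound. Orange points are the 45 genes with another probe well above background on a PCKO array and dark points the other 136, and the curve runs from 131-fold for Opn1mw to 1.34-fold for Sfta2.

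For 104 genes every WT signal was above 16.9, the highest of the PCKO floors, and for 37 genes even the mean WT signal was at or below it. On the signals themselves, the lowest WT array lay above the highest PCKO array for 161 genes, a separation that the choice of the genes favours, and for 11.8% of the 15410 named probes detected on all WT arrays. A second, weaker mark of the software, for a spot positive and significant over its surroundings, was set on all 4 WT arrays for all 181 genes. On PCKO arrays it was set on none for 22 genes, on 1 to 3 for 75 genes and on all 4 for 84 genes. Myod1, Flrt1, Asb15, Kcng4 and Tmem225 were among the 22, chosen here from that list after their values were seen.

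Opn1mw, the medium-wavelength cone opsin of the retina, had the largest bound. Its brighter probe gave 10.2, 18.9, 6.57 and 3.29 on the PCKO arrays, against 1286, 1359, 1371 and 1244 on the WT arrays. The groups were far apart, the 4 WT mice differed by a coefficient of variation (CV) of only 4.59%, and the fall was at least 131-fold. Its other probe was WT-only as well, with a bound of 51.7-fold. Lsmem1, a leucine-rich single-pass membrane protein, had 7.52, 9.78, 10.1 and 11.2 in PCKO muscle, against 610, 848, 651 and 704 in WT muscle (at least 77.3-fold lower in PCKO muscle).

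Klhl38 encodes a Kelch-like protein of the kind that acts as substrate adaptor for cullin ubiquitin ligases. It measured 5.36, 7.11, 5.58 and 3.18 in PCKO muscle, against 751, 1130, 1124 and 1242 in WT muscle, a fall of at least 116-fold. Asb15, a SOCS-box ligase adaptor that is abundant in skeletal muscle, had 1.99, 3.07, 3.39 and 2.49 in PCKO muscle, against 54.3, 94.4, 53.6 and 64.5 in WT muscle (at least 7.19-fold). On each PCKO array its value was below the median negative control, which lay between 2.08 and 3.63. Marchf4 and Asb18 were the other members of the ubiquitin ligase list, with bounds of 1.63-fold and 1.37-fold. The list thus gave 4 WT-only genes of 253 detected on all WT arrays (1.58%), near the 1.5% over all genes. In the same list, 71 of 258 tested genes that were not WT-only were lower in PCKO muscle and 118 were higher (limma, Benjamini-Hochberg adjusted p under 0.05), against 31.8% lower and 38.5% higher among all 12558 tested genes that were not WT-only and 32.7% lower and 38% higher among all 12739 tested genes. Of 11 further Asb genes, 8 were lower and 3 higher.

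Myod1, the myogenic determination factor, had 2.81, 3.65, 3.63 and 3.05 in PCKO muscle, against 150, 247, 152 and 248.8 in WT muscle. No PCKO array came near a WT array, and the fall was at least 21.5-fold. It was the only gene of the basic helix-loop-helix list to be WT-only. The related factors, which were not WT-only, were tested over all genes with limma: Myf6 was lower by 4.41 on the log2 scale (-4.41 ± 0.13 SE, n = 4 against 4, adjusted p = 4e-08) and Myog was lower too (-1.54 ± 0.23 SE, adjusted p = 0.00033). Myf5 was well above background on no array. Fhl3, a LIM-domain protein known to bind MyoD, was WT-only by 1 of its 2 probes, with 4.79, 4.78, 12.2 and 4.26 in PCKO muscle, against 89.6, 90.2, 88.2 and 50.3 in WT muscle.

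Receptors gated by neurotransmitters gave 4 WT-only genes of the 15 that were detected on all 4 WT arrays (26.7%), against 1.5% over all 12066 genes so detected. The family shares were not matched for signal level. Of 13 tested family genes that were not WT-only, 5 were lower and 4 higher, against 31.8% lower and 38.5% higher over all such genes. Of the 4 WT-only genes, 3 were subunits of the nicotinic acetylcholine receptor. Chrna9, an alpha subunit known from cochlear hair cells, had 5.42, 3.80, 3.89 and 2.59 in PCKO muscle, against 222, 210, 164 and 379 in WT muscle (at least 25.7-fold). Chrna2, a neuronal alpha subunit, had 4.65, 6.96, 3.48 and 3.51 in PCKO muscle, against 53.3, 109, 55.6 and 145 in WT muscle (at least 9.17-fold). WT mice differed among themselves in both genes, with CVs of 38.4% and 49.0%, but every WT array was above every PCKO array.

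Chrne, the epsilon subunit that replaces the gamma subunit in the adult muscle receptor, was dimmer. It had 1.96, 2.94, 6.28 and 2.56 in PCKO muscle, against 34.6, 24.9, 34.2 and 18.5 in WT muscle, so that its bound was 3.01-fold. Chrng, the gamma subunit of the embryonic receptor, was well above background on 1 PCKO array and no WT array and was not tested. The remaining subunits of the muscle receptor moved in both directions: Chrna1 was lower in PCKO muscle (-3.47 ± 0.12 SE, limma adjusted p = 8.8e-08), Chrnd was lower (-3.33 ± 0.16 SE, 4.4e-07), and Chrnb1 was higher (1.63 ± 0.16 SE, 2.9e-05). Gria3, an AMPA-type glutamate receptor subunit, was the other member, with 2.27, 15.9, 10.01 and 7.26 in PCKO muscle, against 17.7, 24.8, 28.5 and 14.8 in WT muscle, values that overlapped.

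Lynx1 and Slurp2 belong to the Ly6 family of small proteins that modulate nicotinic receptors, and were looked up after their values were seen. Lynx1 had 8.56, 8.52, 4.69 and 7.12 in PCKO muscle, against 32.1, 39.3, 40.9 and 23.2 in WT muscle (at least 3.66-fold by this probe). Its brighter probe, detected on all 8 arrays, had means of 1246 in PCKO and 2164 in WT muscle and differed by less (-1.27 ± 0.15 on the log2 scale, SE). Slurp2 had 8.70, 8.93, 14.4 and 4.87 in PCKO muscle, against 23.8, 22.5, 16.1 and 19.9 in WT muscle (at least 2.25-fold). The loci lie next to each other on chromosome 15 and share transcribed sequence in mouse annotation, so their probes may not be separate readings.

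Potassium channel genes gave 6 WT-only genes of 34 detected on all WT arrays (17.6%, against 1.5% over all genes). Kcnc1, a fast voltage-gated channel of the Shaw type, had 2.11, 3.57, 5.46 and 2.63 in PCKO muscle, against 119, 148, 121 and 119 in WT muscle (at least 14.0-fold). Its probe detected on all 8 arrays differed by -3.74 on the log2 scale. Kcnq5, a channel of the M-current family, had 11.3, 14.9, 7.69 and 7.88 in PCKO muscle, against 100.4, 150, 113 and 127 in WT muscle (at least 12.5-fold), while another Kcnq5 probe was well above background on 1 PCKO array and no WT array. By the WT-only probes of both genes the WT mice were close to each other and the groups did not overlap.

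Kcnf1, Kcnv2 and Kcng4 encode electrically silent subunits, which form no channel alone and modify other voltage-gated channels. Kcnf1 had 2.05, 3.33, 18.3 and 5.12 in PCKO muscle, against 113, 559, 166 and 164 in WT muscle. A single WT mouse was far above the other WT mice, the CV of 82.5% was the highest among the 181 genes, and the bound was 22.2-fold. Kcnv2 had 5.21, 5.98, 3.43 and 2.52 in PCKO muscle, against 24.2, 25.2, 26.2 and 13.9 in WT muscle. Kcng4 had 2.15, 3.01, 3.59 and 2.60 in PCKO muscle, against 16.3, 19.2, 17.6 and 19.6 in WT muscle, with bounds of 2.41-fold for Kcnv2 and 2.01-fold for Kcng4.

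Kcnj11, the pore subunit of the ATP-sensitive potassium channel, was WT-only by a dim probe, with 4.65, 3.18, 17.4 and 2.90 in PCKO muscle, against 26.2, 28.2, 26.3 and 24.2 in WT muscle. Its brighter probe was detected on all 8 arrays and differed by -3.58 on the log2 scale. The sulfonylurea receptor subunits that assemble with it were lower as well, Abcc8 by -1.80 ± 0.17 (SE, limma adjusted p = 2.2e-05) and Abcc9 by -1.07 ± 0.08 (4e-06). With spike-in centring Abcc9 differed by -0.33 ± 0.30 (SE) and did not pass the threshold (limma adjusted p = 0.33). In that fit every gene looked up had the same SE, so its p-values do not rest on a gene's own spread. Of 35 potassium channel genes that were tested and not WT-only, 19 were lower and 5 higher, against 31.8% and 38.5% over all such genes. Their median log2 difference was -0.53, against 0.07 over all genes that were not WT-only. With spike-in centring 8 were lower and 10 higher, where 7.91% of all genes that were not WT-only were lower and 57.6% higher.

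**Figure D3:**
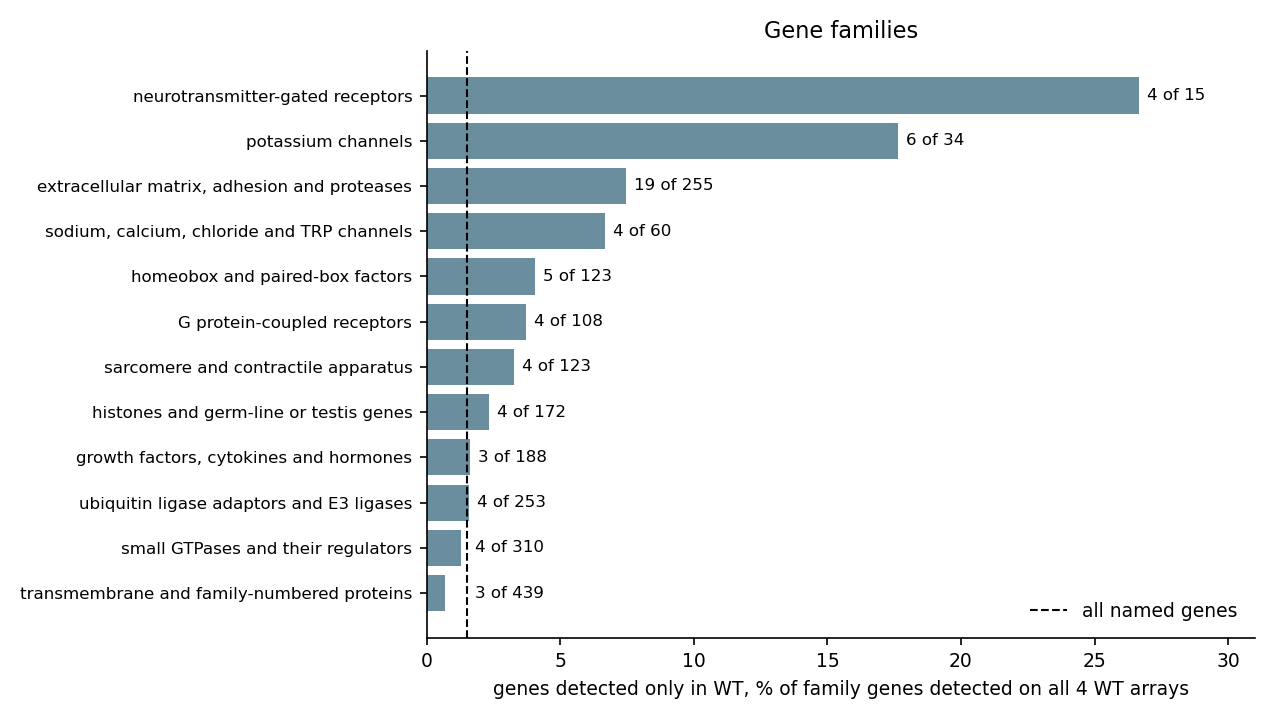
Share of the genes detected on all 4 WT arrays that were WT-only (percent), by gene family, with the counts beside each bar and the share over all genes (1.5%) as a dashed line. Neurotransmitter-gated receptors (26.7%) and potassium channels (17.6%) have the longest bars.

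Other channels gave 4 WT-only genes of 60 detected on all WT arrays (6.67%, against 1.5% over all genes). Cacna1i, a T-type calcium channel, had 3.88, 7.33, 3.48 and 2.51 in PCKO muscle, against 63.4, 111, 137 and 60.3 in WT muscle (at least 9.68-fold by this probe). Another Cacna1i probe, well above background on 3 PCKO and 4 WT arrays, differed by only -1.74 ± 0.12 (log2, SE). Clcn6, an endosomal chloride transporter, had 10.3, 12.6, 13.7 and 10.4 in PCKO muscle, against 23.1, 24.8, 25.02 and 25.6 in WT muscle (at least 2.65-fold). P2rx3 and Scn2a were the other members, and their further probes, detected on all 8 arrays, differed by -0.17 and -1.47. No gene of the solute carrier list was WT-only, of 211 detected on all WT arrays, against 1.5% over all genes. That list goes by symbol prefix, so carriers with other symbols, if any, are not counted in it.

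Among G protein-coupled receptors, the family list held Glp2r, Tas1r1, Ntsr2 and F2rl3. These were 4 of 108 detected on all WT arrays (3.70%, against 1.5% over all genes). Glp2r, the receptor of the gut hormone GLP-2, had 4.88, 6.14, 7.26 and 2.61 in PCKO muscle, against 32.1, 52.3, 33.7 and 28.3 in WT muscle (at least 3.94-fold by this probe). Its other probe was well above background on no array. Tas1r1, a subunit of the umami taste receptor, had a bound of 3.09-fold. The list went by symbol prefixes and missed Opn1mw, Casr, Sctr and Cx3cr1, which were recognised as receptors of this class after their values were seen.

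Casr, the calcium-sensing receptor known from the parathyroid and kidney, had 3.78, 5.34, 3.64 and 2.62 in PCKO muscle, against 256, 328, 258 and 332 in WT muscle (at least 32.3-fold). Sctr, the receptor of secretin, had 2.05, 10.9, 3.68 and 8.99 in PCKO muscle, against 144, 207, 217 and 115 in WT muscle (at least 18.3-fold). Casr had a single probe, far above the WT floor in every WT mouse. For Sctr, both further probes detected on all 8 arrays were lower in PCKO muscle, by -4.73 and -5.13 on the log2 scale, so transcript of this gene was measured in PCKO muscle by those probes.

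Genes of the extracellular matrix, adhesion and proteolysis were the largest named group, with 19 WT-only genes of 255 detected on all WT arrays (7.45%, against 1.5% over all genes). Cntnap2, a neurexin-like protein that clusters potassium channels on axons, had 2.50, 12.7, 13.2 and 12.6 in PCKO muscle, against 150, 209, 193 and 257 in WT muscle (at least 21.9-fold by this probe). A dimmer Cntnap2 probe, well above background on 3 WT arrays and 0 PCKO arrays, had means of 3.06 in PCKO and 16.1 in WT muscle (-2.87 ± 0.28 on the log2 scale, SE). A further Cntnap2 probe was well above background on no array. Itgb6, an integrin beta subunit known from epithelia, had 10.4, 12.004, 12.6 and 13.0 in PCKO muscle, against 168, 213, 142 and 172 in WT muscle (at least 18.2-fold by this probe). Its other probe was well above background on no array. By the WT-only probes of both genes the 4 WT mice stood close together and an order of magnitude above the PCKO mice. The group also held the collagen genes Col9a1, Col2a1, Col14a1 and Col17a1, with bounds of 2.18-fold to 5.92-fold.

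Flrt1, a fibronectin and leucine-rich repeat membrane protein, had 2.13, 3.55, 3.73 and 2.63 in PCKO muscle, against 258, 160, 289 and 268 in WT muscle (at least 26.3-fold by this probe). Its other probes were bright in WT muscle and remained detected in PCKO muscle: mean signals of 59.8 in PCKO and 8531 in WT muscle for the first (-7.68 ± 0.18 on the log2 scale, SE) and of 178 in PCKO and 18966 in WT muscle for the second (-7.26 ± 0.23). The bound of the dim probe was thus smaller than the difference its brighter probes measured. Over the whole family, 141 of 256 tested genes that were not WT-only were lower in PCKO muscle and 59 were higher, against 31.8% lower and 38.5% higher over all such genes. With spike-in centring 55 were lower and 83 higher, against 7.91% and 57.6% over all such genes.

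The contractile apparatus gave 4 WT-only genes of 123 detected on all WT arrays (3.25%, against 1.5% over all genes). Jph2, junctophilin of the triad that ties the plasma membrane to the sarcoplasmic reticulum, had 8.76, 9.05, 3.88 and 4.67 in PCKO muscle, against 97.6, 93.8, 92.3 and 82.9 in WT muscle (at least 10.1-fold). It had no other probe. The titin gene Ttn was WT-only by 1 of its 4 probes, with 9.62, 10.698, 12.3 and 5.08 in PCKO muscle, against 72.1, 81.0, 79.6 and 83.7 in WT muscle (at least 8.63-fold). The 3 further Ttn probes were detected on all 8 arrays and differed by -2.91, -1.83 and -4.59, and the brightest of them still had a mean signal of 24886 in PCKO muscle, against 62236 in WT muscle.

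Myoz3, a Z-disc protein that binds calcineurin, and Tpm1, a tropomyosin, were likewise WT-only by 1 probe while others were detected in PCKO muscle. The further Myoz3 probe differed by -4.28 and the 4 further Tpm1 probes by -0.75 to -1.36 on the log2 scale. Of 121 genes of this family that were tested and not WT-only, 93 were lower and 15 higher, with a median log2 difference of -1.51, against 31.8% lower and 38.5% higher over all such genes. With spike-in centring 64 were lower and 18 higher, against 7.91% and 57.6% over all such genes. Dmpk, the kinase gene of myotonic dystrophy, which is outside the family list and was named after its values were seen, had 2.05, 2.95, 3.42 and 2.75 in PCKO muscle, against 47.3, 49.8, 45.6 and 44.1 in WT muscle, and its brighter probe measured a mean of 313 in PCKO and 9642 in WT muscle (-5.46 ± 0.14 SE).

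Growth factors, cytokines and hormones gave 3 WT-only genes of 188 detected on all WT arrays (1.60%, against 1.5% over all genes). Slit1, an axon guidance ligand, had 9.76, 10.1, 8.56 and 3.28 in PCKO muscle, against 90.9, 103, 116 and 128 in WT muscle (at least 11.8-fold). Apln, the precursor of the vasoactive peptide apelin, had 7.28, 15.9, 3.54 and 5.24 in PCKO muscle, against 22.7, 60.1, 77.7 and 16.3 in WT muscle (at least 3.87-fold). The WT mice split in Apln, with 2 of them several times above the other two, and its lowest WT value lay just above its highest PCKO value. A CV over 50% between WT mice was found in 11 genes, among them Mup2 (77.5%), Nav2 (68.1%) and Gadl1 (60.2%), which were chosen as the most variable after their values were seen.

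The list of homeobox and paired-box factors gave Hoxa4, Dach2 and 3 Rhox genes, 5 of 123 detected on all WT arrays (4.07%, against 1.5% over all genes). The list goes by symbol prefix, so a place in it does not show that a protein has either domain. Hoxa4, a patterning factor of the body axis, had 10.2, 10.2, 14.7 and 10.3 in PCKO muscle, against 31.4, 24.5, 30.3 and 33.9 in WT muscle (at least 3.21-fold). Dach2, which in muscle is known to take part in the response of myogenin to innervation, had 4.04, 3.21, 3.82 and 2.70 in PCKO muscle, against 20.1, 26.8, 12.6 and 15.1 in WT muscle (at least 1.98-fold), and another Dach2 probe was detected on 1 PCKO array. Rhox8 was WT-only by a dim probe whose signals overlapped between the groups, with means of 11.1 in PCKO and 13.6 in WT muscle. Its bright probe was detected on all 8 arrays, with means of 7829 in PCKO and 6924 in WT muscle (-0.32 ± 0.11 on the log2 scale after scaling, SE). Rhox3f and Rhox3h, like the histone variants H2al1a, H2al1e and H2al1m, are near-identical copies on the X chromosome, so a probe may read several of them and their separate entries are uncertain. The X chromosome carried 12 of the WT-only genes (6.63%), against 3.95% of all named genes.

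The remaining families held the following examples. Cfap52, a protein of motile cilia, had 3.36, 4.22, 11.4 and 5.80 in PCKO muscle, against 102, 191, 151 and 165 in WT muscle (at least 16.4-fold), and Cfap70, of the same organelle, had a bound of 7.86-fold. Gbp6, an interferon-induced GTPase, had 11.9, 8.29, 10.9 and 9.98 in PCKO muscle, against 73.6, 189, 83.6 and 124 in WT muscle (at least 11.4-fold). The other Gbp6 probe was detected on all 8 arrays with mean signals of 222 in PCKO and 180 in WT muscle (-0.21 ± 0.27 on the log2 scale after scaling, SE). WT-only genes made up 2.33% of the detected genes in the family of Cfap52 and 1.29% in that of Gbp6, against 1.5% over all genes. Plekha6 (at least 4.42-fold), Tmem225 (4.96-fold) and Lrtm2 (3.42-fold) were the other genes the naming rule took.

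Golga7b, an accessory protein of a palmitoyltransferase, gave different values by its probes. The WT-only probe had 3.19, 4.31, 4.33 and 3.01 in PCKO muscle, against 147, 86.7, 237 and 191 in WT muscle (at least 17.2-fold). The second probe was detected on all 8 arrays with mean signals of 61.0 in PCKO and 43.0 in WT muscle, a log2 difference of -0.01 after scaling.

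In all, 109 WT-only genes had a single probe. Of the 72 with several, 27 had none that was well above background on any PCKO array, so 136 of the 181 genes were below that mark by every probe in PCKO muscle. For the other 45 genes the statement holds for the probe only, and 33 of them had a further probe detected on all 4 PCKO arrays. The WT-only genes had 93 further probes that were not WT-only. Of these, 27 were well above background on no array of either group, so they cannot show a fall. Only 4 genes had 2 WT-only probes. There were 42 further probes detected on all 8 arrays. After scaling, 41 had a lower mean in PCKO muscle, 29 of them by 2-fold or more and 12 by 8-fold or more. Their genes were chosen on the same arrays by the same contrast, which favours this direction, so the count is a description. The log2 differences of the 42 probes ran from -7.68 to 0.03 with a median of -1.65. On the unscaled signals some of them, such as those of Sumf2 and Golga7b, had a higher mean in PCKO muscle. The share of lower probes among all probes detected on all 8 arrays was not counted. Ramp1, a receptor activity-modifying protein, had a further probe that was lower (-2.49) and another, of a different transcript accession, that was higher (1.72).

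**Figure D4:**
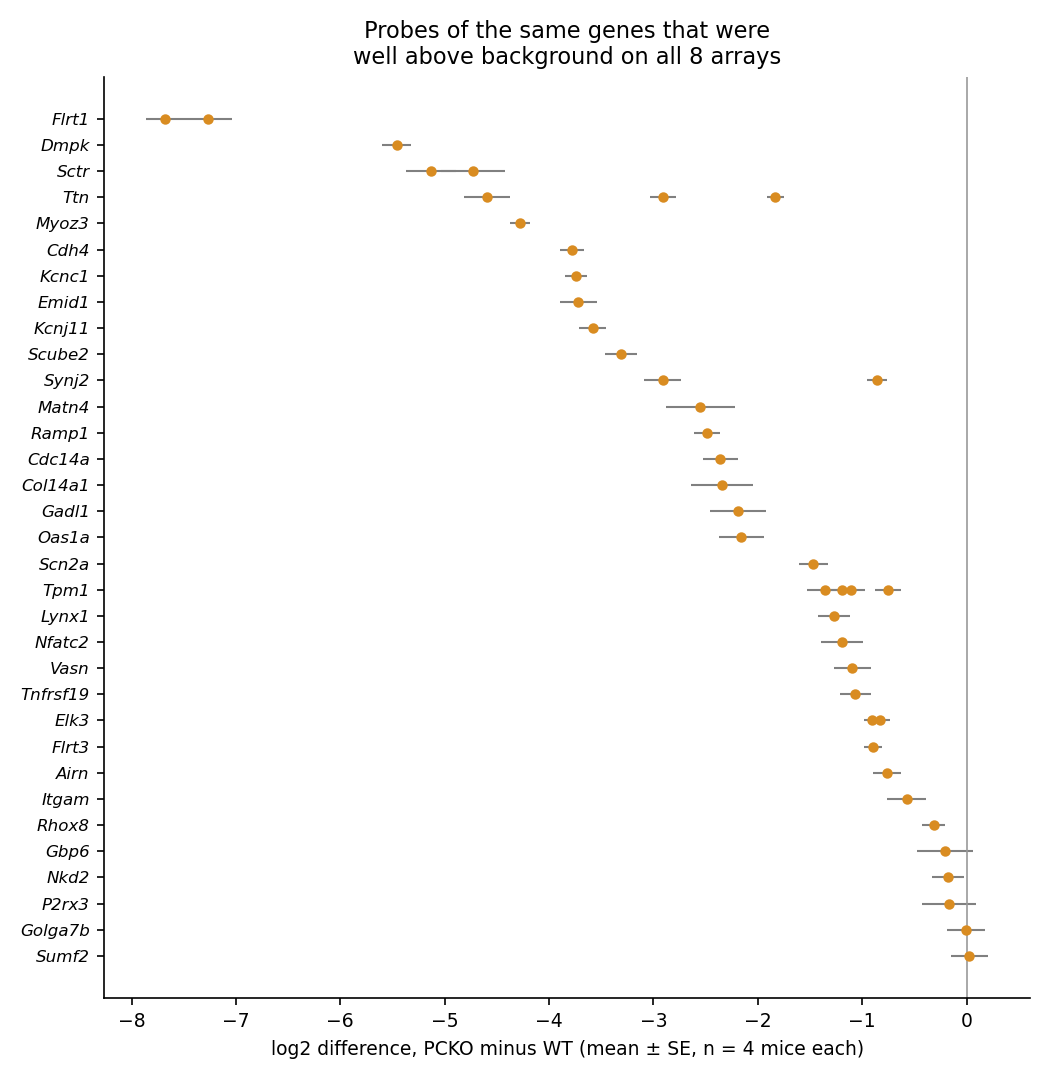
Log2 difference (PCKO minus WT, after scaling, with SE) of the 42 further probes of WT-only genes that were detected on all 8 arrays. The points run from -7.68 for Flrt1 to 0.03 for Sumf2, and 41 of 42 had a lower mean in PCKO muscle, a direction that the choice of the genes favours.

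A few WT-only genes were neighbours. Ordered along RefSeq protein-coding genes there were 3 adjacent pairs: Slurp2 with Lynx1, Otog with Myod1, and Myod1 with Kcnc1. The number of such pairs that chance would give was not counted. On chromosome 7 the pairs form the run Otog, Myod1, Kcnc1, where Kcnc1 was WT-only by just 1 of its 3 probes. Its other probes were well above background on 3 and on all 4 PCKO arrays. The brighter of them had a mean signal of 282 in PCKO muscle, against 2668 in WT muscle, so Kcnc1 transcript was measured in PCKO muscle. Otog, an inner ear matrix glycoprotein, had 2.14, 3.57, 4.13 and 2.76 in PCKO muscle, against 37.5, 61.0, 38.8 and 41.6 in WT muscle (at least 4.85-fold). The gene before Otog, Ush1c, was higher in PCKO muscle (1.14 ± 0.21 SE, limma adjusted p = 0.0011), and the gene after Kcnc1, Sergef, was higher too (1.73 ± 0.10 SE, 1.1e-06), followed by Tph1, which was lower (-1.32 ± 0.25 SE, 0.0013). Kcnj11 and Abcc8 lie just before Ush1c, and beyond them Nomo1 did not pass the test (-0.11 ± 0.11 SE, 0.36).

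Just inside it, Lrrc4 had 7.002, 6.98, 11.6 and 2.56 in PCKO muscle, against 12.9, 10.4, 13.6 and 13.5 in WT muscle, Asb18 had 1.99, 3.18, 3.44 and 2.48 in PCKO muscle, against 13.0, 11.2, 12.1 and 13.1 in WT muscle, and Sfta2 had 8.54, 10.01, 6.49 and 8.88 in PCKO muscle, against 9.87, 14.1, 13.9 and 11.0 in WT muscle. Their bounds were 1.39-fold, 1.37-fold and 1.34-fold. Just outside it were 95 genes detected on all 4 WT arrays and 1 PCKO array, and 96 detected on 3 WT arrays and no PCKO array. Lrrc30 had 5.53, 14.2, 31.1 and 8.51 in PCKO muscle, against 1876, 2496, 1950 and 2344 in WT muscle, a log2 difference of -7.98, and was left out for its signal on 1 PCKO array. Catsper4, a sperm cation channel subunit, had 15.5, 13.2, 9.55 and 10.1 in PCKO muscle, against 391, 497, 505 and 501 in WT muscle (-5.81). Nos1, the neuronal nitric oxide synthase that is anchored at the muscle membrane, had 20.3, 6.61, 12.4 and 2.79 in PCKO muscle, against 165, 138, 212 and 153 in WT muscle (-4.82). Lrrc30, Catsper4 and Nos1 were brighter in WT muscle than most genes inside the rule. They were taken for their large differences, a choice that favours a bright WT signal.

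The authors' deposited table, on a log2 scale, listed the probes of 106 WT-only genes. In the authors' deposited table all 106 had a lower mean in PCKO muscle and 101 had groups that did not overlap, where 47.1% of the 15532 named probes in the authors' deposited table had a lower PCKO mean and 16.9% had every PCKO value below every WT value; the choice of the genes fixes this direction. The differences in the authors' deposited table ran from -4.93 (Klhl38) to -0.19 with a median of -0.76, and were -2.85 for Myod1 and -2.97 for Chrna9. These are the same arrays and the same contrast, so they are a second reading and not a repeat.

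In RNA of whole muscle, fewer cells of a type and less RNA per cell cannot be told apart. The 8 markers of muscle fibres were detected on all arrays, and their summed scaled signal was 955 to 1233 in PCKO muscle, against 5753 to 7511 in WT muscle. Sums for endothelial cells were 16.2 to 25.4 in PCKO and 26.2 to 28.9 in WT muscle, for smooth muscle 48.0 to 66.5 in PCKO and 95.6 to 118 in WT muscle, for fibroblasts 208 to 289 in PCKO and 425 to 530 in WT muscle, and for tendon 7.93 to 13.0 in PCKO and 19.9 to 34.0 in WT muscle. Macrophage markers, of which 4 of 5 had a probe, summed to 10.3 to 20.9 in PCKO and 26.2 to 33.2 in WT muscle, beside which stand the WT-only genes Itgam (at least 2.41-fold) and Cx3cr1 (at least 2.02-fold), both known from myeloid cells. A brighter Itgam probe was detected on all 8 arrays and differed by -0.57 ± 0.19 (log2, SE), less than that bound, and the Cx3cr1 signals overlapped between groups, with up to 15.7 in PCKO muscle and down to 13.7 in WT muscle. Satellite cell markers summed to 9.88 to 11.3 in PCKO and 11.7 to 14.4 in WT muscle, with 2 of 5 detected on all arrays, and lymphocyte markers, of which Cd8a was detected on no array, to 0.157 to 0.187 in PCKO and 0.193 to 0.321 in WT muscle. The sums hide differences within a list. Of the satellite cell markers, Pax7 was higher in PCKO muscle (log2 difference 0.82 after scaling), with means of 18.9 in PCKO and 9.02 in WT muscle. Vcam1, Calcr and Cdh15 were lower (-1.15, -1.46 and -0.24), and Myf5 was detected on no array. Fibre markers ran from -0.67 (Myh4) to -5.40 (Pvalb), and fibroblast markers from -0.64 (Dcn) to -3.24 (Col1a1). Sums overlapped between the groups for Schwann cells (4.99 to 8.02 in PCKO, 5.47 to 7.86 in WT muscle), adipocytes (4.48 to 21.2 in PCKO, 7.15 to 32.8 in WT muscle) and red cells (846 to 1602 in PCKO, 638 to 2265 in WT muscle). With spike-in centring, an alternative chosen for these sums after seeing the data, the fibre sum was still lower in every PCKO mouse than in any WT mouse, while the ranges of every other list overlapped. No marker was itself WT-only, and the part of these cell types in the WT-only genes was not tested.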

How the data were processed

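RNA of 4 PCKO and 4 WT muscles was measured, 1 array each, and the 8 arrays shared 1 slide, its 2 rows holding 2 PCKO and 2 WT arrays apiece. Per the file headers, Feature Extraction gave the deposited intensity of each spot after subtracting background, without normalizing between arrays. The well-above-background marks are the software's own, per the file headers. The authors' deposited series table is in log2 units, its processing is not stated, and it served as an alternative.

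Spots of a probe were averaged, leaving out outlier spots (246 probe values had every spot marked and kept their value). A mark counted where its mean was 0.5 or more. Values were log2 intensity minus the array's 75th percentile. No probe was saturated, and 24207 to 25673 of 55681 probes were well above background per array. The number of arrays limits the precision, and near background so do the floor, the background correction and the scaling. Accessions were matched without versions to RefSeq (GRCm38.p6), where 26582 probes had 1 symbol and 29099 none. Genes well above background on at least 4 arrays (12739, each by its brightest probe) were fitted with limma 3.58.1 in R 4.3.3 with group as the term and Benjamini-Hochberg adjustment at 0.05; 4172 genes (32.7%) were lower in PCKO muscle and 4840 (38%) higher, against 1151 and 7229 with spike-in centring. The fit was tested on simulated data.

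The WT-only genes, families and marker lists were chosen with earlier results of these data known, and the families go by symbol prefix. Leaving out clone and predicted names, the text names the 12 largest bounds, the 2 largest in each of the 12 families with most WT-only genes, the 3 largest with another probe detected in all PCKO mice, 3 genes just inside and 3 just outside the threshold, and both targeted genes; 1 gene of the first 12 is not reported here. Nothing in the labels says more of how samples were drawn, so p-values measure the spread between these samples. The fit with spike-in centring differs, since every gene looked up there had the same SE (0.304). Its calls and counts therefore do not rest on each gene's own spread. Alternatives were other scalings, background corrections, floors, marks, filters, the deposited table, each slide row, blocks and leaving out each array. Samples with the same replicate number correlated by 0.045 to 0.107 in their deviations from the group means, against -0.122 to 0.036 for different numbers. The labels state no pairing, so the main fit did not take the numbers to pair the mice, and the replicate number as a block was an alternative.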

Additional observations from a re-analysis of the deposited data

Results flagged for a closer look

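Of 35 sets of 4 values tested among the named genes, 3 had a sample far from the other samples of its group by Dixon's criterion, which chance alone meets in about 1 set in 20. Flrt1 had a signal of 160 in WT replicate 2, below the other WT mice. Cfap52 had a signal of 102 in WT replicate 1, below the other WT mice. Ttn had a signal of 81.0 in WT replicate 2, which stands apart only after scaling, where that array has the highest 75th percentile of the WT arrays.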

How the results depend on the processing

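The number of WT-only genes (181) became 82 with the weaker positive-and-significant mark, of which 24 were shared, 428 with at least 3 of 4 WT and at most 1 of 4 PCKO arrays, and 310 and 411 in slide rows 1 and 2 alone. The number below the mark by every probe (136) became 57, with 243 and 296 in the rows. Fewer arrays make the rule easier to meet, and leaving out 1 array gave 184 to 223 genes, and 137 to 171 by every probe. The median bound (2.88-fold) was 1.40-fold with normexp (on the median spot signal), 1.72-fold with spike-in centring, 2.04-fold with no scaling (an alternative chosen after seeing the data), 2.02-fold with the 5th percentile as floor, 7.91-fold with the probe's own value as floor, 3.52-fold and 2.40-fold in rows 1 and 2, and 2.63-fold to 3.17-fold leaving out 1 array. The bounds of Lrrc4, Asb18 and Sfta2 went under 1 with spike-in centring (0.831, 0.818 and 0.801), with no scaling (0.985, 0.969 and 0.949) and with the 5th percentile (0.958, 0.943 and 0.923); under 1 in all were 21, 3 and 5 of the 181 genes. Under these 3 settings the bounds of the other genes taken by the naming rule stayed above 1. Genes lower in PCKO muscle (4172) became 1151 with spike-in centring and 2386 in the deposited table, which lists fewer probes, and 3925 to 4065 leaving out 1 array, with 4571 to 4809 higher. The cause of the other changes was not tested. With the replicate number as a block, 4156 genes were lower and 4733 higher, and all 8 samples correlated best with their own number, a hint from the data and not from the design.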

Other observations

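Probes without a gene name were left out of the count of WT-only genes. Among them 183 were well above background on all 4 PCKO arrays and no WT array, and 243 on all 4 WT arrays and no PCKO array. Clone or predicted names accounted for 10 of the 181 WT-only genes, and 8 WT-only genes were annotated as other than protein coding, the lncRNAs Mhrt and Airn among them.
The clone-named gene with the largest bound, Gm4841, named after its values were seen, had a signal of 5.82, 3.15, 9.26 and 2.66 in PCKO muscle, against 523, 884, 474 and 738 in WT muscle, a fall of at least 70.3-fold.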
